A study of Mus musculus with 2 samples.

Results

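Nucleotides that leave a cell act as signals on its neighbours until enzymes on the cell surface take them apart. The 10 genes described here, Entpd1, Nt5e, Ada, Adora2a, Adora2b, P2rx4, P2rx7, P2ry6, P2ry12 and P2ry14, encode enzymes and receptors of this purinergic signaling, and were taken as all deposited lines with one of these symbols, 10 of the 22886 genes in the files. They were measured by RNA sequencing in 2 libraries of sorted cells, labelled aerobic tumor cells, from subcutaneous tumors of Lewis lung carcinoma (LLC), a mouse lung cancer line. The animals of both libraries were wild type C57BL/6 mice, and the libraries differ in what was injected, vehicle (Veh) for one and clodronate (Clod), a compound used to deplete macrophages, for the other. There was 1 library per condition, so no difference between them has a replicate check and no test of the conditions was possible. The labels give no dose, time, age, number of mice or sorting markers, and the growth protocol names EML cells, a blood progenitor line, which conflicts with the tumor origin.

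ATP outside a cell is cut to AMP by the ectonucleotidase CD39, the product of Entpd1, and AMP is cut to adenosine by CD73, the product of Nt5e. Adenosine deaminase, the product of Ada, turns adenosine into inosine. Nucleotides act through the ion channels of the P2X family and the G protein-coupled receptors of the P2Y family, while adenosine acts through receptors of its own, of which those encoded by Adora2a and Adora2b raise cyclic AMP and are known for restraining inflammatory output of macrophages.

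Levels are given in RPKM, reads scaled to transcript length and library size, so that genes can be set beside each other within a library. RPKM carries no depth, but low values of transcripts of at least 3 kb fell on whole multiples of a smallest step, which is the worth of 1 read. By this step the vehicle library held an estimated 13100000 reads and the clodronate library 10700000, and 81.0% and 71.9% of values worth 1 to 5 reads lay within 0.1 of a whole read. The reads behind each gene are estimates from this step and the transcript length. The 95% intervals of RPKM ratios come from these estimated reads by an exact binomial (Clopper-Pearson) method and cover counting error only, not the difference between mice, sorts or library preparations.

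All 12 macrophage markers, among them Lyz2 at 10534 RPKM with vehicle and 11189 RPKM with clodronate, had at least 10 RPKM in both libraries. Their sum was 27681 RPKM with vehicle and 25858 with clodronate, with 7 of them higher and 5 lower, all under 2-fold. By ratio, C1qc differed most downward, with 3984 and 2043 RPKM, and Fcgr1 most upward, with 22.5 and 42.3 RPKM. Markers of epithelial cells were low, with 6.44 RPKM as the highest value, for Cdh1, and with Epcam and Krt19 listed at 0 in both. The libraries thus carried far more macrophage than epithelial marker RNA, although the labels speak of tumor cells. The summed level of the marker lists of other cells was 154 RPKM with vehicle and 75.4 RPKM with clodronate for fibroblasts, 83.0 and 70.2 for mast cells, 43.1 and 45.1 for neutrophils, 23.2 and 41.0 for platelets, 16.5 and 12.4 for T and NK cells, 5.97 and 4.63 for dendritic cells, 3.34 and 7.84 for endothelial cells and 2.99 and 1.74 for B cells. In such sorted material a smaller number of cells that express a gene and less RNA of it per cell cannot be told apart.

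All 10 genes were detected in both libraries and had a mean of at least 1 RPKM, as did 10982 genes in all. P2ry6 had the highest level of the 10 in both libraries, and 6 of them, P2ry6, Entpd1, P2rx4, P2rx7, P2ry12 and Nt5e, had at least 10 RPKM in both. The lowest level was that of Ada in the vehicle library and that of Adora2a in the clodronate library. The median gene kept had 11.1 RPKM with vehicle and 11.3 RPKM with clodronate, so that Adora2a and Ada lay below it in both.

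**Figure D1:**
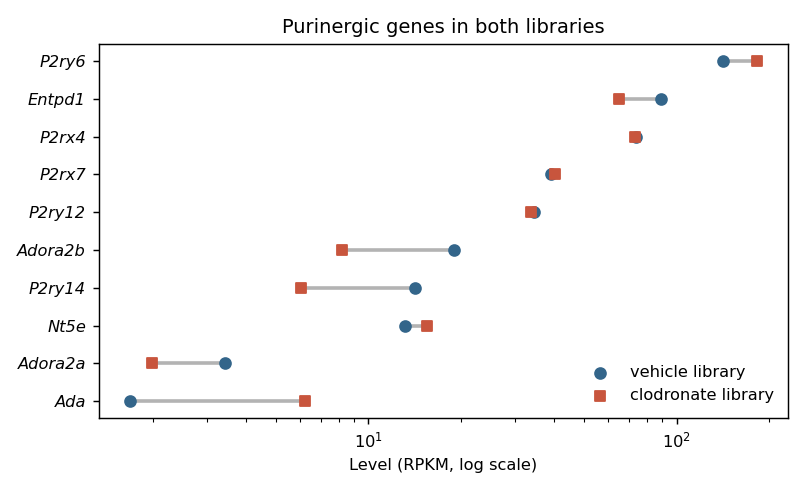
Level of each of the 10 purinergic genes in RPKM on a log axis, with a circle for the vehicle library and a square for the clodronate library (1 library each). P2ry6 is highest in both, P2rx4, P2rx7 and P2ry12 have nearly coinciding symbols, and Ada, Adora2b and P2ry14 have the longest lines between the libraries.

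Log2 ratios compare the clodronate with the vehicle library after 1 RPKM was added to each value, so positive ratios mark genes that were higher with clodronate and low genes are understated. No member reached 3-fold by this ratio, while 2.86% of all genes kept did so upward and 2.32% downward. At 2-fold, 1 of the 10 members, Ada, was higher and 2, Adora2b and P2ry14, were lower, beside 6.95% of all genes kept that were higher and 6.77% that were lower. The other 7 members were under 2-fold. The median log2 ratio of the members was -0.020, beside 0.019 for all genes kept, with 4 members higher and 6 lower. Such ratios were most frequent at low levels. Among 5069 genes whose mean lay from 1 to 10 RPKM, as that of Ada did, 11.1% were 2-fold higher or more. In the same class 10.5% were 2-fold lower or more. Among 5090 genes from 10 to 100 RPKM, where Adora2b and P2ry14 lay, 3.54% were 2-fold lower or more. The means of Adora2b and P2ry14, 13.6 and 10.1 RPKM, lay near the lower edge of this class.

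**Figure D2:**
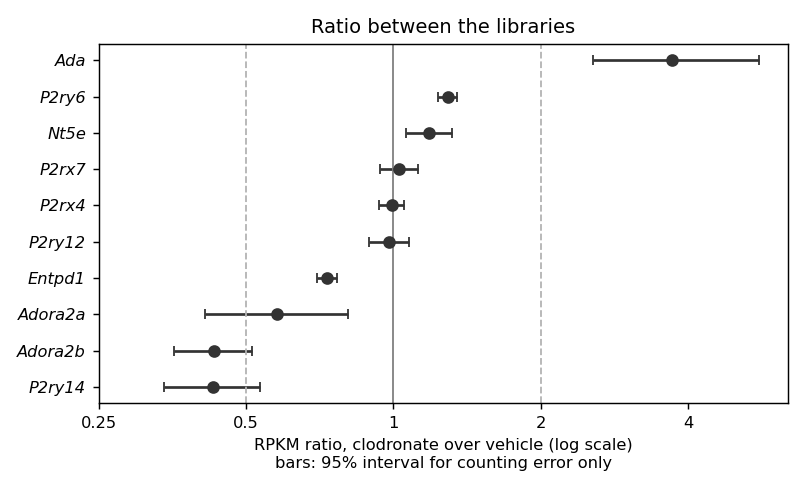
RPKM of the clodronate library divided by RPKM of the vehicle library for each of the 10 genes, on a log axis, with bars for the 95% interval of counting error only; the solid line marks a ratio of 1 and the dashed lines 2-fold. The bars of P2rx4, P2rx7 and P2ry12 include 1, and the whole bar of Ada lies above 2-fold.

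Of the member genes for the steps from ATP to adenosine, Entpd1 stood far above Nt5e. Entpd1 lies on chromosome 19 from 40734284 to 40816092 in the mm9 build that the files use. It had 89.2 RPKM in the vehicle library, from an estimated 4921 reads, and 65.2 RPKM in the clodronate library, from 2941 reads. The gene of CD39 was therefore lower in the clodronate library, with a log2 ratio of -0.44, and the RPKM of the vehicle library was 1.37 times that of the clodronate library (95% interval of counting 1.31 to 1.43). A ratio at least as low was found for 21.9% of all genes kept, so this difference was larger than counting error and of ordinary size among genes. Nt5e, on chromosome 9 from 88222447 to 88266927, had 13.1 RPKM with vehicle and 15.5 RPKM with clodronate, with a log2 ratio of 0.23. The gene of CD73 thus went the other way, with an RPKM ratio of clodronate over vehicle of 1.18 (1.06 to 1.32). Within a library, the level of Entpd1 was 6.80 times that of Nt5e in the vehicle and 4.21 times in the clodronate library.

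Ada, which removes adenosine, showed the largest ratio of the 10 genes. It lies on chromosome 2 from 163552320 to 163575913 (mm9). Ada had 1.68 RPKM in the vehicle library, from an estimated 37 reads, and 6.25 RPKM in the clodronate library, from an estimated 113 reads. Its log2 ratio was 1.43, and 3.48% of all genes kept had a ratio at least as high. Without the added 1 RPKM, the value of the clodronate library was 3.71 times that of the vehicle library (2.56 to 5.58), and with 0.1 RPKM added Ada passed 3-fold. The level of Nt5e was 7.79 times that of Ada in the vehicle library and 2.48 times in the clodronate library. Lymphocytes are known for their Ada, and of the 10 T and NK cell markers Cd3e, Cd3g and Ncr1 were listed at 0 in both libraries. Cd4 had 10.3 RPKM with vehicle and 7.72 with clodronate, Foxp3 4.76 and 2.68 RPKM, Cd3d 0.837 and 0.0789 RPKM, and Cd8b1 0.598 RPKM with vehicle and 0 with clodronate. The other way, the NK cell genes Nkg7 and Klrb1c were listed at 0 with vehicle and had 1.02 and 0.918 RPKM with clodronate, from an estimated 10 and 21 reads, and Cd8a had 0.0307 RPKM from 1 read. These markers moved in both directions, and their part in the higher Ada was not tested.

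The adenosine receptor genes were both lower in the clodronate library. Adora2b, on chromosome 11 from 62062486 to 62079954 (mm9), had 19.0 RPKM in the vehicle library, from an estimated 459 reads, and 8.18 RPKM in the clodronate library, from an estimated 161 reads. With a log2 ratio of -1.12 it had the lowest log2 ratio of the 10 genes, just below P2ry14 (the order turns without the added 1 RPKM), and 5.19% of all genes kept had one at least as low. Its RPKM in the vehicle library was 2.32 times that in the clodronate library (1.94 to 2.80). Adora2a, on chromosome 10 from 74779688 to 74797533, had 3.42 RPKM in the vehicle library, from 116 estimated reads, and 1.98 RPKM in the clodronate library, from 55. Its log2 ratio was -0.57, and the RPKM quotient of vehicle over clodronate was 1.73 (1.24 to 2.42). The low-affinity receptor gene Adora2b was thus the more abundant of the pair, with 5.55 times the level of Adora2a in the vehicle library and 4.13 times in the clodronate library, and the sum of both went from 22.4 to 10.2 RPKM. Fibroblasts and mast cells are also known to carry Adora2b. Their markers were lower in 5 of the 6 and 3 of the 4 genes kept. Among these were Dcn with 77.3 and 28.4 RPKM and Cpa3 with 33.0 and 21.6 RPKM. The other way, Col1a1 had 2.32 and 5.40 RPKM and Tpsb2 had 23.6 and 27.6 RPKM. The endothelial list summed to 3.34 RPKM with vehicle and 7.84 RPKM with clodronate. The part of any of these cells in the lower Adora2b was not tested.

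The promoter windows of Ada and Adora2b, the genes with the highest and the lowest log2 ratio, are shown so that their sequences can be set beside these opposite values. They run from 250 bases before to 50 bases after the RefSeq start, in the GRCm38.p6 build, at chr2:163750190-163750489 on the minus strand for Ada and at chr11:62248734-62249033 on the plus strand for Adora2b. Capitals mark GGGCGG on either strand, the GC box bound by Sp1.

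Ada: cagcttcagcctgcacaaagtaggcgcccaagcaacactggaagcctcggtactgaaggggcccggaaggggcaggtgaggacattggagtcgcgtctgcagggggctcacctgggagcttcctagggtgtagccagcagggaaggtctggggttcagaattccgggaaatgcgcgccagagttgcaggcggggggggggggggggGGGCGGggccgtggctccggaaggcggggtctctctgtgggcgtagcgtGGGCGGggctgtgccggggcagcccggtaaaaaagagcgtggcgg
Adora2b: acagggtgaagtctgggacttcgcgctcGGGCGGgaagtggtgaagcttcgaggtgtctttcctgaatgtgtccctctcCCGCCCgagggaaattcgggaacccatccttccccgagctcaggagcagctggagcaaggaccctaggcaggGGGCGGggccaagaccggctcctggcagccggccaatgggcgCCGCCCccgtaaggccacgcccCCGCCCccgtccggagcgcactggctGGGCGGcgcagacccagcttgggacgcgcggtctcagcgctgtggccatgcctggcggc

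The GC box occurred 2 times in the Ada window and 6 times in the Adora2b window, and 35.7% of all 32851 windows held at least 1. The windows of Nt5e, P2rx4 and P2rx7 held it too, with 4, 1 and 2 matches. The core GCGTG of the hypoxia response element, to which HIF-1 binds, occurred once in the Adora2b window, 42 bases before the start. It occurred 2 times in the Ada window, 2 and 42 bases after the start, and 32.4% of all windows held it on either strand. Windows of Entpd1, Nt5e and P2ry14 held it too, 1 time each. The other form of this core, ACGTG, was held by 19.6% of all windows and, among the members, by that of P2ry12. Ada and Adora2b, which differed in opposite directions, thus shared GGGCGG and GCGTG in these windows. The interferon response element was in none of the windows of the 8 members that have one, and 3.44% of all windows held it. A match is only a run of letters, and no statement on binding follows from it.

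The ion channel genes P2rx4 and P2rx7, which lie next to each other on chromosome 5, had nearly the same level in both libraries. P2rx4, whose channel sits mainly in lysosomes of macrophages, spans 123157566 to 123179051 (mm9) and had 73.8 RPKM with vehicle and 73.2 RPKM with clodronate. P2rx7, the channel that opens at high ATP and drives the release of interleukin-1, spans 123093920 to 123141441 and had 39.1 and 40.2 RPKM. Their log2 ratios were -0.012 and 0.039, with RPKM ratios of clodronate over vehicle of 0.992 (0.936 to 1.05) and 1.03 (0.939 to 1.12). Scaling to the upper quartile turned that of P2rx7 to -0.022. Neither differed beyond counting error, and with P2ry12 they were the 3 members within 0.1 of a log2 ratio of 0, where 14.3% of all genes kept lay. These channels held 99.5% of the summed RPKM of the 7 P2X genes in the vehicle and 99.9% in the clodronate library. P2rx1 and P2rx2 were listed at 0 in both libraries, and P2rx3, P2rx5 and P2rx6 had at most 0.457 RPKM.

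The genes downstream of the P2rx7 channel did not all stay level with it. Nlrp3, the inflammasome sensor, had 102 RPKM with vehicle and 107 RPKM with clodronate, and its adaptor Pycard had 19.8 and 24.4 RPKM. Casp1, the protease that they activate, had 33.0 and 18.9 RPKM. Its substrates were lower as well, Il1b with 278 and 97.2 RPKM and Il18 with 53.1 and 13.3 RPKM. Of these 5 genes none was 2-fold higher, while Il1b and Il18 were more than 2-fold lower, with log2 ratios of -1.51 and -1.92. A ratio at least as low as that of Il1b was found for 2.69% of all genes kept, and for Il18 this share was 1.26%. By 2-fold or more, 6.95% of all genes kept were higher and 6.77% lower.

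P2ry6, the receptor for UDP, was the most abundant member. It lies on chromosome 7 from 108086148 to 108112880 (mm9). P2ry6 had 141 RPKM in the vehicle library, with 5.29% of the genes kept at a higher level, and 183 RPKM in the clodronate library, with 4.33% at a higher level. It was higher in the clodronate library, with a log2 ratio of 0.37 and an RPKM ratio of 1.29 (1.23 to 1.35), and 26.6% of all genes kept had a ratio at least as high. Its share of the summed RPKM of 7 P2Y genes was 68.7% in the vehicle and 77.2% in the clodronate library. P2ry2, a receptor for ATP and UTP, had a log2 ratio of 0.63 and 6.74 RPKM with clodronate, and P2ry1 and P2ry4 stayed below 1.3 RPKM.

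P2ry12, P2ry13 and P2ry14 encode related receptors, the first pair for ADP and the third for UDP-glucose, and the files place all of them in a locus on chromosome 3 from 58810900 to 59148178 (mm9). P2ry12, known as a marker of microglia and of platelets, had 34.4 RPKM in the vehicle library, from an estimated 1012 reads, and 33.7 RPKM in the clodronate library, from an estimated 811 reads. Its log2 ratio was -0.028, and the RPKM ratio of clodronate over vehicle of 0.981 (0.893 to 1.08) did not leave counting error. P2ry14 had 14.1 RPKM in the vehicle library, from an estimated 309 reads, and 6.05 RPKM in the clodronate library, from an estimated 108 reads. P2ry14 was thus lower in the clodronate library, with a log2 ratio of -1.10, a vehicle over clodronate RPKM ratio of 2.33 (1.87 to 2.94) and 5.48% of all genes kept at a ratio at least as low. After correction for GC content and transcript length its log2 ratio was -0.92, under 2-fold, and that of P2ry12 was 0.27. P2ry13, which is not a member, went the same way, with 11.5 and 5.89 RPKM and a log2 ratio of -0.87. The level of P2ry12 was therefore 2.43 times that of P2ry14 in the vehicle library and 5.57 times in the clodronate library. P2ry13 and P2ry14 together held 12.5% of the summed RPKM of the P2Y genes in the vehicle and 5.04% in the clodronate library.

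**Figure D3:**
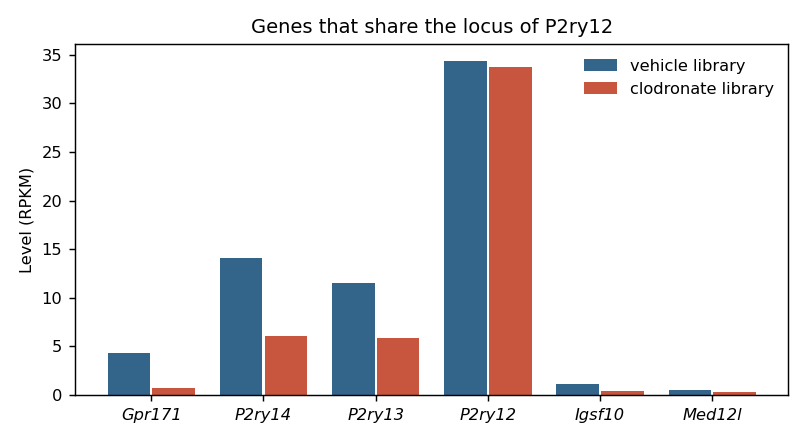
Level in RPKM, on an axis from 0, of 6 genes that the files place in the locus of P2ry12, with bars for the vehicle and the clodronate library (1 library each). The bars of P2ry12 have nearly the same height, and those of P2ry13, P2ry14 and Gpr171 are lower in the clodronate library.

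The following genes of this locus, chosen after their values were seen, were also lower in the clodronate library. Gpr171, an orphan receptor gene, had 4.34 and 0.747 RPKM, Igsf10 had 1.09 and 0.360 RPKM and Med12l, which overlaps the receptor genes on the other strand, had 0.513 and 0.283 RPKM. Igsf10 and Med12l averaged below 1 RPKM and were not among the genes kept. Their log2 ratios were -0.62 and -0.24, beside -1.61 for Gpr171. A ratio at least as low was found for 14.9%, 33.0% and 2.22% of all genes kept, in this order. The sources used here do not say whether reads were counted by strand, so that reads of Med12l and of the receptor genes inside it may be mixed, although the level of Med12l is far below theirs. Of the platelet markers Gp5, Gp6 and Gp9 were listed at 0 in both libraries, Ppbp had 21.3 and 40.4 RPKM, Gp1ba went the other way with 1.90 and 0.387 RPKM, and Itga2b was listed at 0 with vehicle and had 0.247 RPKM with clodronate. Of the microglia markers Sall1 and Siglech had at most 0.302 RPKM, while Tmem119 had 16.6 and 13.7 RPKM and Olfml3 had 77.7 and 56.7 RPKM, the list summing to 353 and 292 RPKM.

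The promoter windows of these neighbouring receptor genes are shown beside their levels, nearly the same in both libraries for P2ry12 and lower with clodronate for P2ry13 and P2ry14. A link between sequence and level was not tested. The windows lie on the minus strand of GRCm38.p6, at chr3:59262936-59263235 for P2ry12, chr3:59210833-59211132 for P2ry13 and chr3:59153443-59153742 for P2ry14, for which this is the first of 4 windows in the table. Capitals mark GAGGAAG on either strand, a core bound by the myeloid factor PU.1.

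P2ry12: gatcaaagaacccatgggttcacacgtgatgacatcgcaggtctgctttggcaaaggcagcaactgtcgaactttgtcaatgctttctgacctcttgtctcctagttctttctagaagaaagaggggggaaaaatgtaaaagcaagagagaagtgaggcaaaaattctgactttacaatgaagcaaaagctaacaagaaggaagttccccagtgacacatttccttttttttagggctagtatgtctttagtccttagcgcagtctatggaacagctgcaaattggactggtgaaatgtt
P2ry13: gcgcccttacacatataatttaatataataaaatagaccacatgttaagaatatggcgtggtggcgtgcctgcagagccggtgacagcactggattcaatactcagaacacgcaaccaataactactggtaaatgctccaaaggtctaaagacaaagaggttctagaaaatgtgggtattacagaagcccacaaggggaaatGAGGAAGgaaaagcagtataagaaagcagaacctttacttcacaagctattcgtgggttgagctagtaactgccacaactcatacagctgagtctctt
P2ry14: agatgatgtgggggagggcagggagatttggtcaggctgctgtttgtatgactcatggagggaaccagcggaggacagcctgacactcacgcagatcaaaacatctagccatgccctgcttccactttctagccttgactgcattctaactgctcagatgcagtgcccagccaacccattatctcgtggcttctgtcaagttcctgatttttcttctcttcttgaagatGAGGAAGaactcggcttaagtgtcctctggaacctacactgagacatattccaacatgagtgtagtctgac

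The run GAGGAAG stood 48 bases before the start of P2ry13 and 21 bases before that of P2ry14, and the P2ry12 window held none. The P2ry12 window does hold the shorter run AGGAAG, which was not searched for, so the windows may differ less than the capitals show. Of all windows 13.6% held the full run GAGGAAG. Among the other members it occurred in a window of Entpd1 and in one of P2rx7, and the remaining 3 windows of P2ry14 held none. Which start was used in these cells was not measured, and no statement on binding follows from these runs.

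Around the 10 genes, 53 further genes of the pathway were looked up, of which 52 were found and 32 had a mean of at least 1 RPKM. Of these 32 genes Entpd3 alone was higher by 2-fold or more, Il1b and Il18 were lower by as much, and the median log2 ratio was 0.069. Of the 32 genes 21 were higher and 11 lower. Over all genes kept, 6.95% were higher and 6.77% lower by 2-fold or more, and 51.6% were higher at all, and nothing particular to the pathway is read from these counts.

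**Figure D4:**
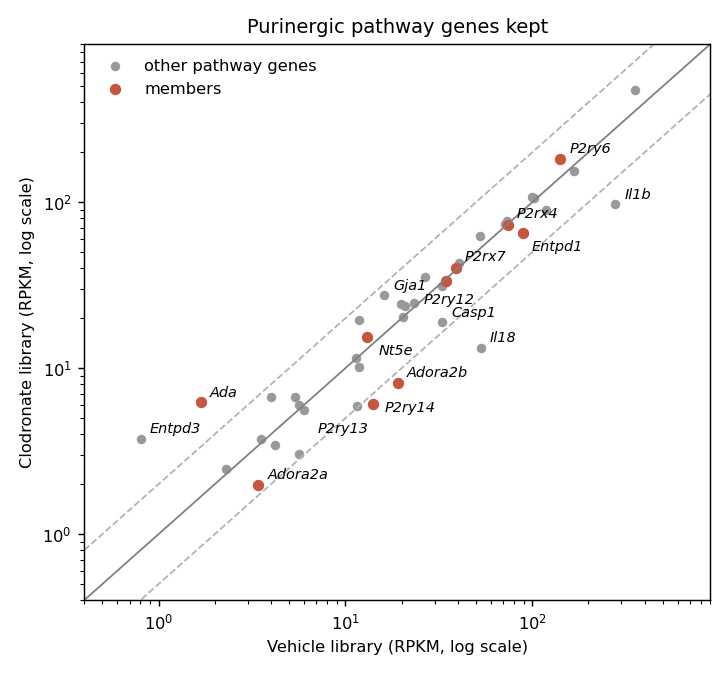
RPKM in the clodronate library against RPKM in the vehicle library, both on log axes, for the 10 members and the 32 other pathway genes kept; the solid line marks equal levels and the dashed lines 2-fold. Ada and Entpd3 lie above the upper dashed line, and Adora2b, P2ry14, Il1b and Il18 below the lower one.

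Among the routes by which nucleotides leave cells, the pannexin gene Panx1 had 5.66 RPKM with vehicle and 6.03 RPKM with clodronate. The connexin gene Gja1 had 16.1 and 27.6 RPKM, the largest ratio of this group with a log2 ratio of 0.74. Lrrc8a, a subunit of the volume-regulated anion channel, had 23.3 and 24.7 RPKM, and the vesicular nucleotide transporter Slc17a9 had 4.22 and 3.43 RPKM. All 4 genes of this group that passed 1 RPKM were under 2-fold.

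Beside Entpd1, the cell surface held other enzymes for nucleotides at lower or similar levels. Entpd3, a relative of Entpd1, had 0.804 RPKM with vehicle and 3.75 RPKM with clodronate, with a log2 ratio of 1.40. Entpd2, Entpd8 and Enpp3 were listed at 0 in both libraries. Entpd1 was therefore the main surface enzyme of its family by RNA. Enpp1, which cuts ATP to AMP, had 11.4 and 11.5 RPKM, and the NAD-consuming enzymes Cd38 and Bst1 had 11.8 and 19.4 RPKM, and 52.4 and 62.2 RPKM. The NTPDase genes of internal membranes, Entpd4, Entpd5, Entpd6 and Entpd7, were all under 2-fold, with 2.31 to 23.8 RPKM.

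Of the genes that take up or use adenosine, the transporter gene Slc29a1 had 118 RPKM with vehicle and 89.4 RPKM with clodronate, with a log2 ratio of -0.40. Adk, the kinase that returns adenosine to AMP, had 5.97 and 5.57 RPKM. Pnp, which acts on inosine after Ada, had 73.6 and 77.2 RPKM, 43.8 times the level of Ada in the vehicle and 12.4 times in the clodronate library. All 5 genes of this group that passed 1 RPKM were under 2-fold. Dpp4, also looked up with this group, had 0.487 and 0.211 RPKM.

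Of the remaining adenosine receptors, Adora1 had 0.0913 RPKM in the vehicle library and was listed at 0 in the clodronate library. Adora3 has no line of its own, since its accession shares a line with the overlapping gene Tmigd3, which had 2.19 and 1.75 RPKM. The G protein subunit genes behind these receptors, 8 in all, were under 2-fold. Gnas, which couples the products of Adora2a and Adora2b to cyclic AMP, had 167 and 155 RPKM, Gnai2, which couples that of P2ry12, had 355 and 476 RPKM, and Gnaq, which couples that of P2ry6, had 40.7 and 43.1 RPKM.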

How the data were processed

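Poly(A) RNA of sorted cells was sequenced by the authors, 1 library per condition, and they deposited RPKM values for 23170 loci per library. The submitters' processing notes name CASAVA 1.8.2, TopHat2 2.0.9, Bowtie 0.12.9, Cufflinks 2.2.1, Cuffdiff and the mm9 build. File starts count from 0 and are given from 1. Lines of one symbol were summed to 22886 genes, and genes averaging 1 RPKM or more over both libraries were kept (10982). RPKM is no count, so no count model was used, and with 1 library per condition no p-value is given. Depth was estimated from the smallest step of RPKM x kb, with GENCODE M21 transcript lengths matched by RefSeq accession. The absolute estimate rests on these lengths. Adgre1 was read under its older symbol Emr1; Ly6g was not found. Named genes are the 10 members and genes of the pathway and marker lists. Outside these lists, Tmigd3 is named for the line it shares with Adora3. Gpr171, Igsf10 and Med12l of the P2ry12 locus were added after their values were seen. Members, lists and motifs were chosen with earlier results of these data known. Promoter windows are RefSeq's, for 8 of 10 members. The steps were tested on simulated data. Python 3.11.15, numpy 2.4.6, pandas 2.3.3, scipy 1.17.1 and matplotlib 3.10.9 were used.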

Additional observations from a re-analysis of the deposited data

How the results depend on the processing

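No paired analysis was possible because only 1 library of each kind exists here. Other settings tried were no filter on low values, a higher filter of 5 RPKM, a pseudocount of 0.1, centred ratios, upper quartile scaling, the highest line of a symbol, 2-fold, and, chosen after seeing the data, ratios corrected for GC content and transcript length. With a pseudocount of 0.1, 1 member (Ada) was at least 3-fold higher, beside 532 genes higher and 480 lower in all. At 2-fold, 1 member was higher and 2 were lower, beside 763 and 744 genes, and above the filter of 5 RPKM, which 8 members pass, 127 and 101 genes passed 3-fold, beside 314 and 255 in the main setting. These settings change by construction how many genes can pass. The median log2 ratio of the members was -0.039 when centred, -0.081 with upper quartile scaling and 0.017 once GC content and length were corrected for, on the other side of 0. No member has a repeated line, so that setting could not change them. For a single member there were 5 alternatives. Ada lay between 1.39 and 1.83, Adora2b between -1.21 and -1.06 and P2ry14 between -1.21 and -0.92, the latter under 2-fold after the correction. The sign of 8 members held in all 5, while P2rx7 reached -0.022 under upper quartile scaling and P2ry12 0.27 after the correction, and the cause was not tested. The number of libraries, and for Ada and Adora2a the few reads, limit what these values show.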
